A study of Homo sapiens with 2 samples.

Results

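Human genes often lie across one another, and a peak in such a stretch has more than 1 gene to belong to. Of the 23111 HNRNPC peaks on chromosomes 1 to 22, X and Y, 570 (2.47%, 95% exact binomial interval 2.27 to 2.67%) had their summit, the position of highest signal, under the spans of several genes. They were chosen by position alone, on RefSeq gene spans of human genome build 38 patch 14. In 524 of them the summit lay in 2 or more protein-coding spans, and in 46 it lay in 2 or more spans of other biotypes with no protein-coding span. The other large class, 21769 peaks, had exactly 1 protein-coding gene at the summit and serves below as the comparison.

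A549, a human line of non-small cell lung cancer that the labels also call NCI-A549, was profiled by RNA immunoprecipitation and sequencing (RIP-seq), with no treatment named. The series has 2 samples, 1 library per group: RNA pulled down from the lysate with 5 µg of an antibody against HNRNPC (the IP), and input RNA with no antibody. Only the peak list of the IP was used here, and its read depth is unknown. There was therefore no replicate check and no test between samples, and every interval below covers counting error only and treats neighbouring peaks as independent, which they are not.

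HNRNPC is an abundant nuclear RNA-binding protein that coats nascent transcripts, binds runs of U and is also known as a reader of the RNA mark N6-methyladenosine (m6A). Overlapping genes come in several forms: a readthrough gene runs from a gene into its downstream neighbour, a nested gene lies within another, and neighbours can overlap by their starts (head to head) or by their ends (tail to tail). The deposited peaks have no strand, so the overlap alone cannot say from which of the genes a bound RNA came. Of 7 marker genes of the line, EGFR, MET, TXNRD1, ABCC2 and SLC7A11 held 17 to 26 peaks and the epithelial keratin genes KRT8 and KRT18 held 0, and peak counts of 1 IP do not settle the identity of the cells.

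Where 2 genes overlapped by their starts, the edge of the peak often fell at the start of 1 of them. Such an overlap lies between 2 starts, so this follows in part from its geometry. The windows below show such edges. Each is a RefSeq promoter window of GRCh38.p14 on the gene's own strand, from 250 bases before an annotated start to 50 bases from it on, with the bases under the shared peak in capitals. In the first 3 the capitals begin at base 256, 247 and 247 of the window, at most 5 bases from the annotated start. They are shown because the peak lies on the transcribed side of the start of the named gene, while the partner gene on the minus strand also spans it.
ARCN1 (chr11:118572159-118572458, plus strand, partner IFT46): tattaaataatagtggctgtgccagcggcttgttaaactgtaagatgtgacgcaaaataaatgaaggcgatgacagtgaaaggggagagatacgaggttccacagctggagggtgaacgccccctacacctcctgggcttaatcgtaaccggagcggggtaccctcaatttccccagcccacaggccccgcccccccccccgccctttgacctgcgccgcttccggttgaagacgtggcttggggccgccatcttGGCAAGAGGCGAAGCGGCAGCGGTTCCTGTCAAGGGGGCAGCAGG
SELENOI (chr2:26345893-26346192, plus strand, partner ADGRF3): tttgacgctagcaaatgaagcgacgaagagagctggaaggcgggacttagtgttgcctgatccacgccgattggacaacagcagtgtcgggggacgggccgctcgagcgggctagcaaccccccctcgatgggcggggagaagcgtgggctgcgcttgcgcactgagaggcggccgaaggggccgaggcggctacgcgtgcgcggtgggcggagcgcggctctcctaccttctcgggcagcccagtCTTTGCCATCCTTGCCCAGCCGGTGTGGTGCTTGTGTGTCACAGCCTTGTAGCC
RO60 (chr1:193059362-193059661, plus strand, partner UCHL5): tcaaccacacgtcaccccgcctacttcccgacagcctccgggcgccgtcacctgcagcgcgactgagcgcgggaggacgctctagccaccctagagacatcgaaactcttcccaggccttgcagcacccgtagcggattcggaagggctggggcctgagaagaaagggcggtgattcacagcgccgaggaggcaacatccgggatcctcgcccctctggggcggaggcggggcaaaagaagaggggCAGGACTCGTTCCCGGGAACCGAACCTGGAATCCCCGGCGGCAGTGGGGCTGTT
E2F3 (chr6:20401629-20401928, plus strand, partner LOC124901482): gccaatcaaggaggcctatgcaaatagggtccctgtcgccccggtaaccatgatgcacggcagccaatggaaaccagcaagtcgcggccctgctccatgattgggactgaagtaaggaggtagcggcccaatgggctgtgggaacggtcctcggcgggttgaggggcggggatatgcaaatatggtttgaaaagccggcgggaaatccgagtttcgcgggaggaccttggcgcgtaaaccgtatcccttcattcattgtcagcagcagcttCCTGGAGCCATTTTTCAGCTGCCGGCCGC
The E2F3 peak began at base 272, 21 bases past the start. The next windows come from the readthrough and nested genes with the most peaks on the same strand. The first RBM27 peak began at base 243, 8 bases before the start that RBM27 shares with its readthrough gene, and the second window lies whole within the widest shared peak.
RBM27 (chr5:146203355-146203654, plus strand, partner RBM27-POU4F3): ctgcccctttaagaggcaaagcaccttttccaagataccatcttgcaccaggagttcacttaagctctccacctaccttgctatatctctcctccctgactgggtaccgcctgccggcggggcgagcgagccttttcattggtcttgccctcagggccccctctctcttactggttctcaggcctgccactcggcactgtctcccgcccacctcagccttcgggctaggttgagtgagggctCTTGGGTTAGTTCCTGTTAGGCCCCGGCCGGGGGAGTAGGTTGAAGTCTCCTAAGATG
ZBED6 (chr1:203797273-203797572, plus strand, partner ZC3H11A): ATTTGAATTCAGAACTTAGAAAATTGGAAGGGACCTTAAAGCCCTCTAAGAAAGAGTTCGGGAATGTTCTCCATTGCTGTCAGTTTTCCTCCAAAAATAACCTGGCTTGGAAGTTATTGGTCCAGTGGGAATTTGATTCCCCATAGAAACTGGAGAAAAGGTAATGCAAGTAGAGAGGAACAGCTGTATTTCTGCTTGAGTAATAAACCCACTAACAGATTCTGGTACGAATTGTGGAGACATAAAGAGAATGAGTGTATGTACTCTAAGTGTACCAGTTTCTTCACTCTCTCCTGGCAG
The GC content of these windows was 59.0% for ARCN1, 66.0% for SELENOI and for RO60, 58.3% for E2F3 and for RBM27, and 40.3% for ZBED6. The longest run of T under the peak was 5 bases in E2F3, 4 in ZBED6, 3 in SELENOI and 2 in the others.

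Runs of T were counted over the whole 300 bases of each promoter window that a peak reached, on its own strand, also outside the peak. A run of 5 T (TTTTT) stood in 6 of 111 windows that shared peaks reached (5.41%). Each window was counted once, also where several genes share it. The run stood in 237 of 1349 windows reached by peaks of 1 protein-coding gene (17.6%), and in 24.9% of all 34943 windows in the RefSeq table. Among the 6 windows, those of E2F3 and FAM72A had 5 T in a row under the peak. Those of LOC105377015, POLR2M, H3C15 and NAA15 had at most 2 there. Among windows of protein-coding genes the share was 20.7%. With AAAAA, the same run on the other strand, counted too, the shares were 14.4%, 28.4% and 39.3%. Median GC content of the whole windows was 65% for shared peaks, 66.3% for single-gene peaks and 58.7% over the RefSeq table. Windows of neighbouring starts overlap and share bases, and sequence beyond these windows was not analysed here.

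The 570 peaks fell into 233 gene sets, a set being the list of all genes whose spans hold the summit. Partial overlaps of 2 genes held the most, 244 peaks in 117 sets. Nested genes held 152 peaks in 48 sets, readthrough genes 128 in 36, and genes of other biotypes 46 in 32. The sets named 448 genes, of which 350 had a strand in the sequence table. Most sets (152, 65.2%) held a single shared peak, 27 held 2 and 54 held 3 or more. At the other end, 11 sets held 10 or more each and together 152 peaks, 26.7% of the shared ones. Only 10 peaks had 3 or more genes at the summit, and 57 had at least 1 gene known only by a LOC symbol.

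The share of peaks that were shared was close to the share of gene length that overlaps. They made up 2.35% (2.16 to 2.56%) of the peaks in protein-coding spans, and 2.13% of the length of those spans lies under more than 1 gene. Density was 19.4 peaks per Mb (17.8 to 21.2) under 2 or more protein-coding spans and 17.6 per Mb (17.4 to 17.8) under 1. The kinds differed among themselves. Partial overlaps had 26.6 per Mb (23.4 to 30.2), readthrough stretches 17.6 (14.7 to 20.9) and nested stretches 15.2 (12.9 to 17.8). The order of partial overlaps over nested stretches lay outside their counting intervals, while the intervals of readthrough and nested stretches overlapped. Gene clusters, stretches where at least 3 protein-coding symbols begin alike, had 0 peaks in 69 sets and 0.54 Mb, which allows up to 6.83 per Mb.

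Fold enrichment, the caller's ratio of signal at the summit to background, was the authors' value and was used only to describe and rank peaks. Its median was 5.76 (95% interval of the median 5.61 to 5.85) in shared peaks and 5.76 in peaks of 1 protein-coding gene. The quartiles were 4.79 and 6.79 in shared peaks and 4.79 and 7.22 in the others. The highest shared fold was 16.4, against 31.5 in single-gene peaks. A fold of 10 or more was reached by 42 shared peaks (7.37%), beside 8.65% of all peaks in the list and 8.91% of single-gene peaks, shares too near each other to set shared peaks apart. These 42 comprised 19 peaks of partial overlaps, 15 of nested genes, 7 of readthrough genes and 1 of other biotypes. Folds took only 279 distinct values among the 570 peaks, with 28 peaks at 5.76 and 23 at 6.24.

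**Figure D1:**
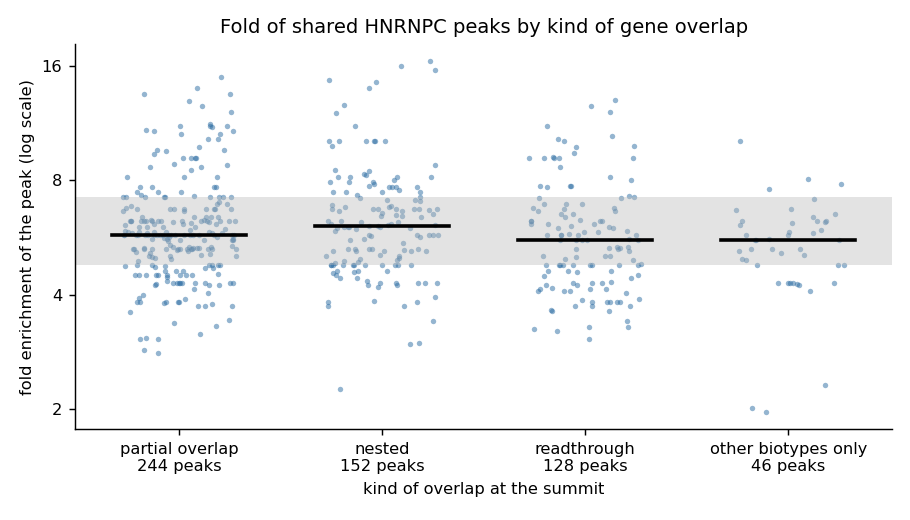
Fold enrichment of every shared peak (log axis) by the kind of gene overlap at its summit. Each point is 1 peak, black lines are medians (5.76, 6.05, 5.57 and 5.58 from left to right), and the grey band runs between the quartiles of peaks with 1 protein-coding gene (4.79 and 7.22). The medians all lie within the band, and the 2 lowest points are peaks of MALAT1 and TALAM1.

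Median fold was 6.05 (5.74 to 6.45) in nested genes, 5.76 (5.605 to 5.85) in partial overlaps, 5.57 (5.03 to 5.85) in readthrough genes and 5.58 (4.98 to 5.93) in other biotypes. The nested median lay outside the intervals of readthrough genes and of other biotypes, and theirs lay outside its own, whereas no other pair of kinds was apart in this way. By orientation, the median was 6.24 for head to head genes and 5.76 for tail to tail genes. Shared peaks were a little wider, with a median of 138.5 bp against 123 bp. Peaks of 1000 bp or more numbered 20 (3.51%), beside 2.42% of single-gene peaks. Of these, 12 lay in nested genes (7.89% of the nested peaks), 4 in other biotypes, 3 in partial overlaps and 1 in a readthrough gene.

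Most peaks of head to head pairs lay near a gene start. The summit was within 500 bp of an annotated gene start in 53 of 71 head to head peaks (74.6%, 62.9 to 84.2%), with a median distance of 184 bp. That share was 92 of the 526 shared peaks with a start to measure from (17.5%, 14.3 to 21.0%) and 1313 of 18262 single-gene peaks (7.19%). The overlap of such pairs is itself a stretch between 2 starts, with a median length of 1.04 kb in the 57 pairs that held a peak. In an overlap of 1000 bp or less, every summit lies within 500 bp of a start by construction. These shares therefore cannot be compared as a trait of the peaks, and any part beyond the geometry was not tested. Tail to tail overlaps hold the ends of both genes, and 5 of the 140 peaks there (3.57%, 1.17 to 8.14%) lay within 500 bp of an end. Among single-gene peaks this was 32 of 18262 (0.175%). The tail to tail overlaps had a median length of 20.7 kb in the 36 protein-coding pairs that held a peak. Their share is therefore not comparable with that of the head to head peaks.

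The edge of a peak adds a side to this distance. In 37 of 70 head to head peaks of partly overlapping genes (52.9%), the edge on the upstream side of a gene lay within 50 bases of an annotated start of that gene. It was the start of the plus-strand gene alone in 19, of the minus-strand gene alone in 14, and of both in 4. Among all 524 protein-coding shared peaks it was 63 (12.02%), and among the 18262 single-gene peaks with a strand it was 6.47%. Only 488 of the 524 had a gene with a strand, and the rest could not count, so the 12.02% is a low figure beside the 6.47%. A head to head overlap is bounded by a start of each gene, so these shares differ in part by geometry. How much of the difference that makes was not tested. Peaks whose edge met both starts were those of ABCC11 and LONP2 (fold 10.6), STRN3 and AP4S1 (10.6), CDC25C and FAM53C (7.70), and TBCK and AIMP1 (6.73).

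The 4 head to head peaks of highest fold whose edge met a start were those of ARCN1, SELENOI, TGFBR2 and RO60. ARCN1 encodes the delta subunit of the coatomer, which coats vesicles between Golgi and endoplasmic reticulum. Its shared peak, at chr11:118572414-118572568, had a fold of 14.96, and ARCN1 held 8 further peaks in its own 26.1 kb. Its partner IFT46, a protein of intraflagellar transport, held 0 in 25.1 kb of its own. SELENOI, an ethanolamine phosphotransferase of phospholipid synthesis, had a fold of 13.5 at chr2:26346139-26346276 and 14 peaks of its own in 49.1 kb, while the adhesion receptor gene ADGRF3 had 0 in 37.97 kb. TGFBR2, the type II receptor of TGF-beta, shared a peak of fold 12.9 with LOC105377015 and held 6 peaks elsewhere, against 0 in the 1.96 kb of the partner alone. RO60, the Ro autoantigen that binds misfolded small RNAs, had a fold of 12.1 and 8 own peaks in 31.7 kb, and UCHL5, a deubiquitinase of the proteasome, had 1 in 47.4 kb. In each of these 4 pairs the gene at whose start the peak began was also the one with the more peaks in the stretch that it alone covers. The pairs were picked by fold and their stretches differ in length. The other pairs whose edge met a start were not counted in this way.

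E2F3, a transcription factor of the cell cycle related to the study's E2F2, shared its first peak with LOC124901482 (fold 10.3, chr6:20401900-20402185) and held 6 more downstream. E2F2 itself held 10 peaks and HNRNPC 18, none of them shared. METTL6, a tRNA methyltransferase, and EAF1, a factor of transcription elongation, overlap by only 46 bp, and a peak of 379 bp and fold 10.8 had its summit there. EAF1 held 6 own peaks in 14.97 kb and METTL6 0 in 46.3 kb. For TWF1, the actin-binding protein twinfilin, and TMEM117, a membrane protein gene, 7 peaks lay in the 10.5 kb overlap, with folds from 4.91 through a median of 6.39 to 13.5. TWF1 had 1 more in the 2.08 kb it alone covers, and TMEM117 had 0 in 592.8 kb.

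Tail to tail pairs held the longest series of peaks among partial overlaps, 139 peaks in 36 pairs with overlaps of 2.16 to 153.3 kb. ATM, the kinase that responds to DNA double-strand breaks, and C11orf65 share 60.6 kb with 13 peaks, whose folds ran only from 4.79 through a median of 5.76 to 6.73. ATM held 23 further peaks in its own 85.5 kb, or 26.9 per 100 kb, close to the 21.5 per 100 kb of the shared stretch. C11orf65 held 0 in 100.8 kb. Peaks lay in ATM on both sides of the point where the overlap begins, and none lay in C11orf65 beyond the end of ATM.

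In the next 5 pairs too, the stretch of 1 gene alone held peaks and that of the other held 0, although densities differed. IRAK1BP1 and PHIP, a bromodomain protein that binds chromatin, share 11 peaks (folds 4.78, median 6.24, to 8.67), with 19 in the part of PHIP alone and 0 in 66.9 kb of IRAK1BP1. TMEM165, a cation transporter of the Golgi, and CLOCK, a transcription factor of the circadian clock, share 13 peaks in 25.5 kb (folds 4.63, median 5.76, to 7.22), with 5 in CLOCK alone and 0 in TMEM165 alone. BTD, which encodes biotinidase, and ANKRD28, a regulatory subunit gene of protein phosphatase 6, share 14 peaks (folds 4.52, median 6.18, to 11.1), with 9 in ANKRD28 alone and 0 in BTD alone. FBXL2, an F-box protein, and UBP1, a transcription factor, share 13 peaks (folds 3.60, median 6.93, to 14.01), with 2 in the 18.7 kb of UBP1 alone and 0 in the 111.3 kb of FBXL2 alone. The adaptor gene APPL1 had 11 of its own beside 4 shared with ASB14, which had 0. A pair with peaks on both sides was MIER1 and SLC35D1, a nucleotide sugar transporter: 6 shared peaks had folds from 5.08 through a median of 7.36 to 11.1, and 10 and 5 lay in the genes alone. FGF2, a growth factor, and its antisense neighbour NUDT6 shared 3 peaks with folds of 3.998, 5.602 and 6.63, with 2 in FGF2 alone and 0 in NUDT6 alone.

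**Figure D2:**
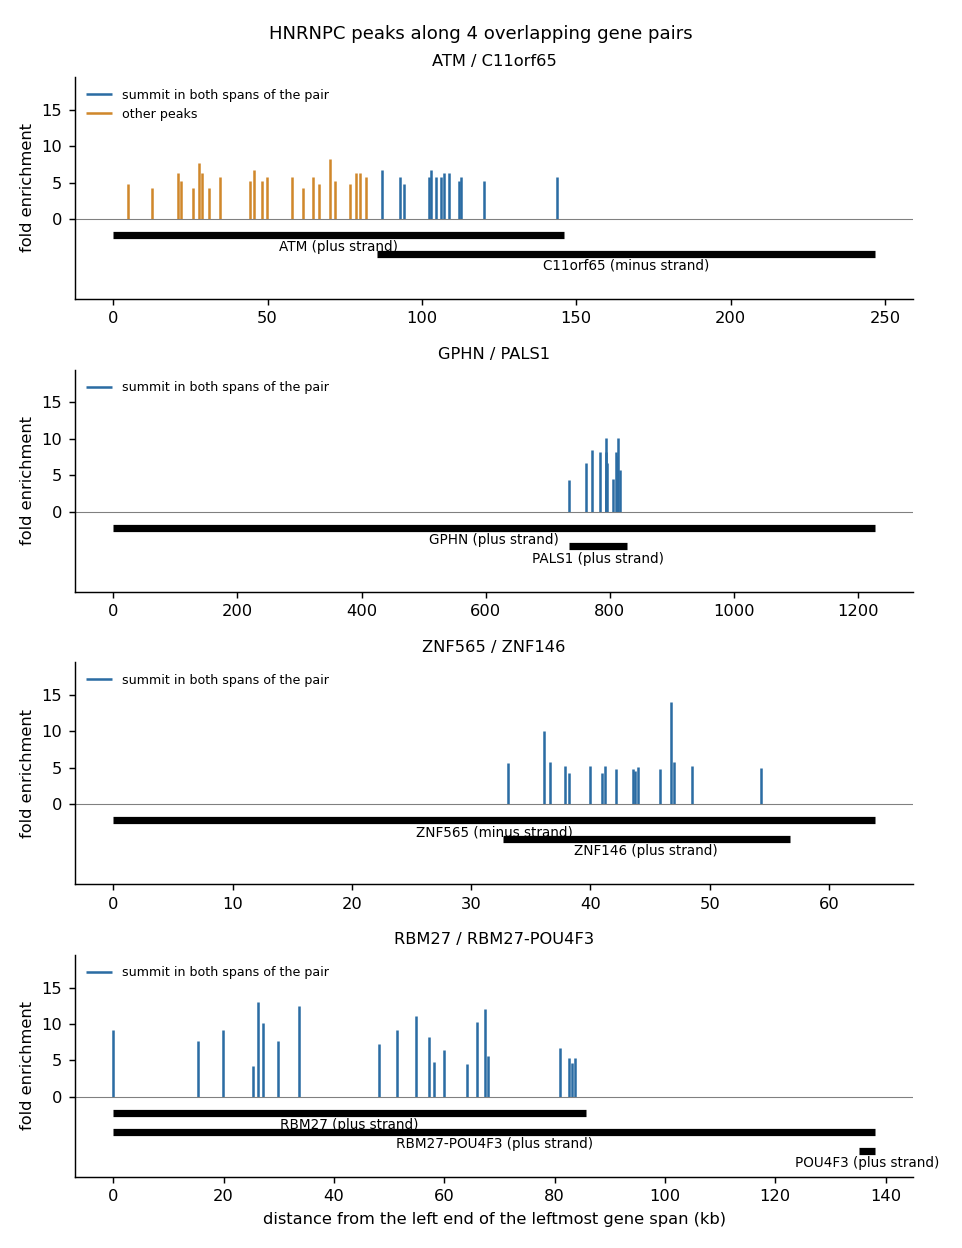
Peaks along 4 overlapping gene sets, with distance from the left end of the leftmost gene in kb on the horizontal axis and fold enrichment on the vertical axis. Each vertical line is 1 peak summit, blue where both genes of the pair hold it and orange elsewhere, and black bars are gene spans. ATM shows 23 peaks outside the overlap, whereas the peaks of the other 3 loci lie within PALS1, ZNF146 and RBM27.

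Over the 117 partly overlapping pairs with a shared peak, 23 had peaks of their own in both genes, 80 in 1 gene and 14 in neither. For tail to tail pairs the counts were 8, 25 and 3, and for head to head pairs 10, 38 and 9. Pairs were picked here for a shared peak, which raises the density of the shared stretch within them. All annotated pairs were therefore set beside them, with or without a peak.

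Among all 434 head to head pairs, the overlap held 4.19 peaks per 100 kb (3.27 to 5.29) and the stretches of 1 gene alone held 1.55 (1.44 to 1.66). Among the 674 tail to tail pairs these were 2.91 (2.45 to 3.44) and 1.54 (1.46 to 1.63). Both differences lay outside the counting intervals. The 450 partly overlapping pairs in which a gene had no strand went the other way, with 1.23 (0.824 to 1.77) and 2.001 (1.86 to 2.15). Of 161 pairs nested on the same strand, the shared stretch held 2.47 per 100 kb (1.87 to 3.21) against 0.752 in the rest of the pair. For the 298 pairs nested on opposite strands the values were 1.04 (0.763 to 1.39) and 0.937 (0.847 to 1.03), which overlap. The 211 readthrough pairs had 1.72 (1.42 to 2.05) against 0.741 (0.469 to 1.11). How strongly each gene is transcribed in A549 was not measured here, and its part in these densities was not tested.

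**Figure D3:**
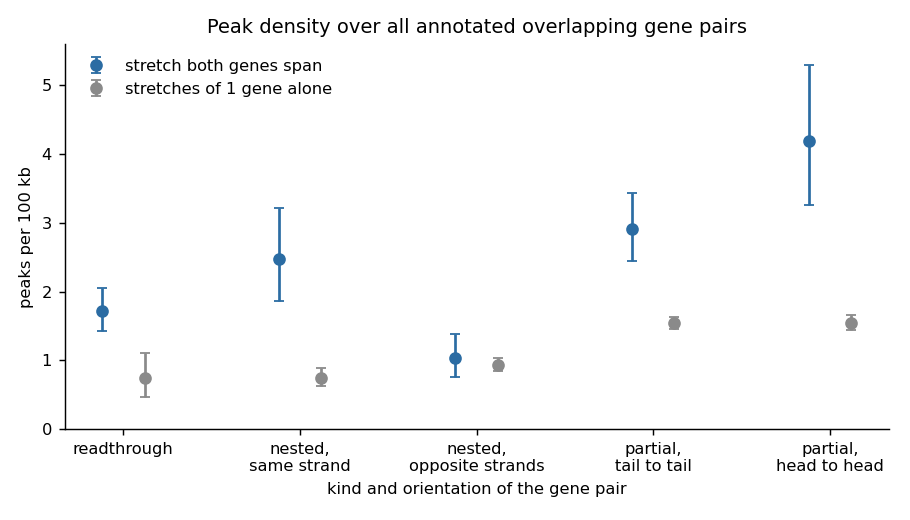
Peaks per 100 kb over all annotated pairs of overlapping protein-coding genes, in the stretch both genes span (blue) and in the stretches of 1 gene alone (grey), by kind and orientation of the pair. Bars are 95% exact Poisson intervals. Head to head pairs are highest at 4.19 against 1.55, and pairs nested on opposite strands are nearly level at 1.04 and 0.937. Nested and partial pairs without a known strand and the 96 partial pairs on the same strand are not drawn.

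Nested genes held some of the strongest shared peaks. ZBED6, a transcription factor derived from a transposon, and ZC3H11A, a zinc finger protein of mRNA export, have the same annotated span, chr1:203795623-203854124 on the plus strand. Its 15 peaks had folds from 3.84 through a median of 7.12 to 16.4, and 5 of them were 10 or more. The first was both the strongest and the widest of all shared peaks, 7386 bp at chr1:203795652-203803037. It begins at the start of the span and covers the other annotated start of ZBED6, whose window is printed above.

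ZNF146 lies within ZNF565 on the opposite strand, and both encode zinc finger proteins. All 17 peaks of the locus lay in the 24.05 kb of ZNF146, with folds from 4.30 through a median of 5.27 to 14.01, and 0 in the 39.8 kb of ZNF565 alone. The strong one (14.01) and the next (10.1) stood well above the other 15, which lay at or below 5.76. PALS1, a scaffold of epithelial cell polarity, lies within GPHN, which encodes the synaptic scaffold gephyrin, on the same strand. It held 13 peaks with folds from 4.30 through a median of 7.70 to 10.1, and the 783.0 kb that GPHN alone covers held 0. In SLC5A3, a myo-inositol transporter, and MRPS6, a mitochondrial ribosomal protein, 11 peaks lay in the span of SLC5A3 and 0 in the 36.8 kb beyond it. Folds there ran from 4.25 through a median of 6.70 to 8.19, and 3 neighbouring peaks were 1833, 1558 and 1756 bp wide.

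RRN3, an initiation factor of RNA polymerase I, held 10 peaks within PDXDC1, which had 1 in 126.0 kb of its own. YOD1, a deubiquitinase, held 9 in 9.27 kb within PFKFB2, an enzyme that regulates glycolysis. That is 97.1 per 100 kb, against 1 peak in 37.3 kb of PFKFB2 alone. TP53INP1, a stress-response gene that p53 induces, held 6 within NDUFAF6, with folds of 6.05, 6.41, 9.83, 5.76, 7.70 and 6.73. THUMPD1 held 6 within ACSM3, an acyl-CoA synthetase, which had 0 in 74.4 kb. POLR2M and GCOM1 share 5 peaks with folds of 12.1, 8.80, 4.80, 8.31 and 4.42, and GCOM1 had 0 elsewhere. GCOM1 is itself a readthrough gene, counted here as nested because its symbol does not join 2 gene symbols. WTAP, a subunit of the m6A writer complex, lies within SOD2, the mitochondrial superoxide dismutase. They shared 2 peaks with folds of 6.56 and 7.92, and SOD2 had 6 more.

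Some nested sets differed from this. The strongest peak over more than 2 genes, with a fold of 15.6 at chr6:63572498-63572763, lay in PTP4A1, LGSN, LOC124901228 and LOC128125822 at once. PTP4A1 is a protein tyrosine phosphatase, and its 5 other shared peaks were weaker: 4 with LOC128125822 alone had folds from 2.26 to 4.88, and 1 with LGSN alone had a fold of 6.73. ANXA8 and NPY4R2 shared 5 peaks with folds of 14.7, 10.2, 5.48, 4.80 and 8.45, the first 3050 bp wide. ANXA8 and NPY4R2 have near copies elsewhere on chromosome 10, so reads may be split between them and these values are uncertain.

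Over the 47 nested pairs with a shared peak, the inner gene held 151 peaks, or 15.4 per 100 kb, and the rest of the outer gene 91, or 1.75 per 100 kb. The inner stretch was denser in 40 of 47, and in 26 the rest of the outer gene held 0. The 151 peaks and the 26 pairs include ZBED6 and ZC3H11A, whose 15 peaks lie in 1 common span with no rest of an outer gene. These pairs were picked for a peak in the inner stretch. Over all 742 annotated nested pairs the shared stretch held 1.54 per 100 kb (1.30 to 1.80) and the rest 0.930 (0.868 to 0.996). In 133 of the 180 nested pairs with any peak, peaks lay only outside the inner gene.

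Most peaks of protein-coding readthrough genes lay in the upstream gene. RefSeq lists 105 such genes by symbol, each named for a first and a second component, and 34 of them held a peak. Readthrough genes of other biotypes were not counted. Among these, TMX2-CTNND1 had 15 peaks in its second component CTNND1, and ZFP91-CNTF had 11 in its first component ZFP91. All 105 were counted, with or without a peak, and each base and each peak once in each part. The first components held 104 peaks, or 3.25 per 100 kb (2.66 to 3.94). The second components held 28, or 0.701 per 100 kb (0.465 to 1.01), and the stretches of neither held 2, or 0.0933 per 100 kb (0.0113 to 0.337). The 3 peaks of POC1B-GALNT4 lay in both its components and stand in both counts. Among the 34 genes with a peak, peaks lay in the first component alone in 23 genes, in the second alone in 6, in both in 4 and in neither in 1. The 2 peaks outside both components lay in RNF103-CHMP3, where RMND5A also holds the summit (fold 5.61), and in ARMCX5-GPRASP2.

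RBM27-POU4F3 had the most shared peaks of any set. RBM27 is an RNA-binding zinc finger protein, and POU4F3 is a transcription factor of inner ear hair cells. All 22 peaks lay in the 85.6 kb of RBM27, with folds from 4.25 through a median of 7.72 to 13.0, and 6 of the 22 were 10 or more. The 49.6 kb from there to POU4F3 held 0 peaks, as did the 2.89 kb of POU4F3. ARHGAP11A held all 9 peaks of ARHGAP11A-SCG5 (folds 3.90, median 5.85, to 9.42). ZNF664 held all 7 of ZNF664-RFLNA in 42.2 kb, and TBCEL all 6 of TBCEL-TECTA in 66.7 kb. ANKHD1 held all 8 of ANKHD1-EIF4EBP3, but it spans 138.0 kb and EIF4EBP3 only 1.915 kb, so nearly all of that span is ANKHD1.

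In a smaller group the second component carried the peaks. LUC7L2, a splicing factor of the U1 particle, held all 6 of FMC1-LUC7L2 (folds 3.41, median 4.08, to 4.79), and CYB5R4 held all 3 of RIPPLY2-CYB5R4. The annotated span of LUC7L2 covers all 82.1 kb of the readthrough gene, FMC1 included, so every peak there counts for it by construction. The 4.99 kb of FMC1 held 0. CYB5R4 spans 107.7 kb of its readthrough gene, and RIPPLY2 only 4.16 kb. LYPLA1-TCEA1 had several in both: TCEA1, a transcription elongation factor, held 9 with a median fold of 4.16, and LYPLA1, a depalmitoylating enzyme, held 3 with folds of 4.13, 6.51 and 9.16. PEDS1-UBE2V1 had a single peak of fold 4.13, in UBE2V1. At POC1B 3 peaks lay under 4 spans at once, POC1B, GALNT4 and the readthrough genes POC1B-GALNT4 and POC1B-DUSP6, with folds of 4.58, 4.92 and 4.04.

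**Figure D4:**
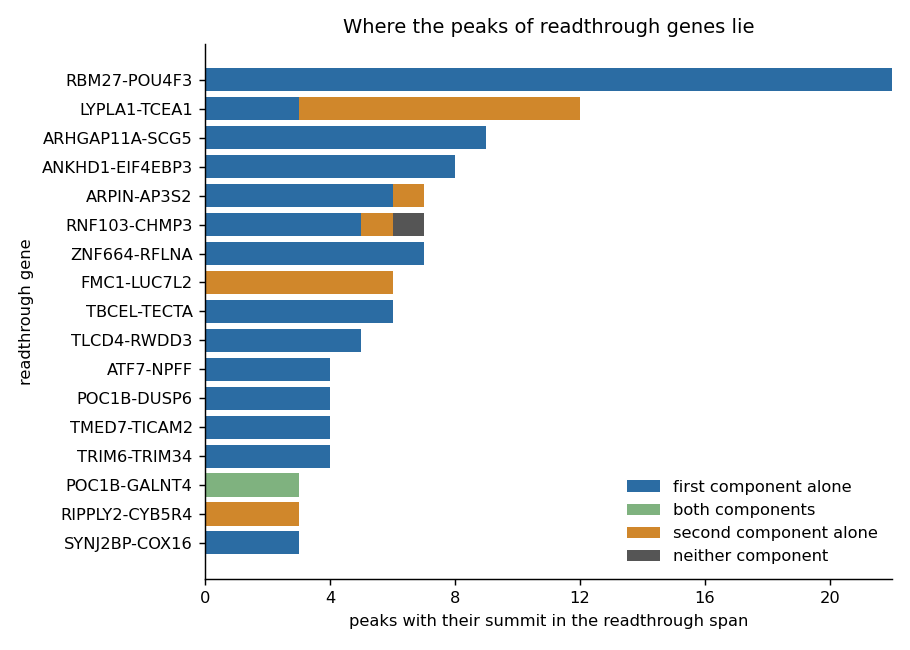
Number of peaks in each part of the protein-coding readthrough genes with at least 3 peaks. Parts are the first component alone, both components, the second component alone, and neither. RBM27-POU4F3 has all 22 in its first component, while FMC1-LUC7L2 and RIPPLY2-CYB5R4 have theirs in the second. The second component of FMC1-LUC7L2 spans the whole readthrough gene.

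**Figure D5:**
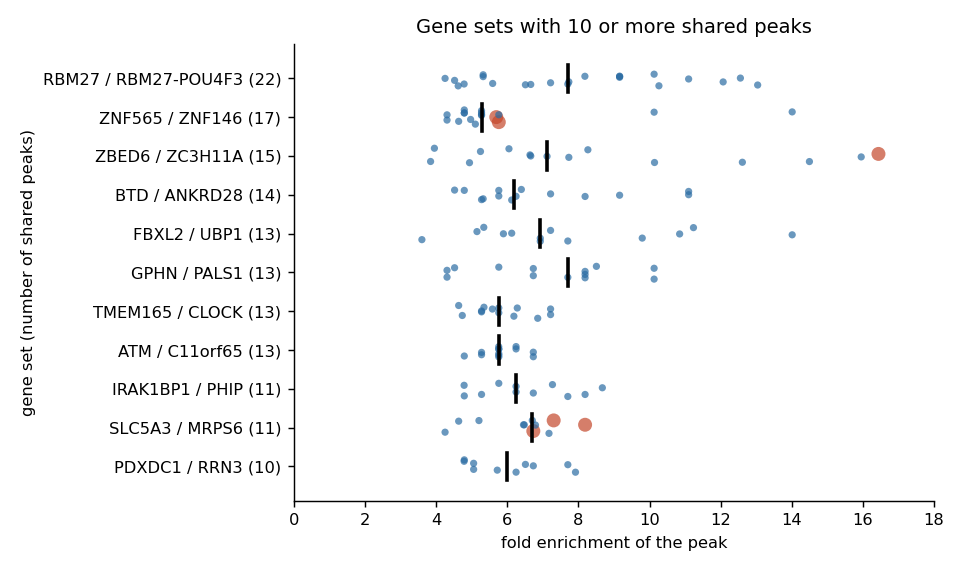
Fold enrichment of each peak in the 11 gene sets with 10 or more shared peaks, with the number of peaks in brackets. Each point is 1 peak, large red points are peaks of 1000 bp or more, and black lines are medians. ZBED6 / ZC3H11A reaches 16.4, whereas ATM / C11orf65 stays between 4.79 and 6.73.

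Several well-known gene clusters and imprinted genes, looked up by name, gave no shared peaks. The UGT1A genes of glucuronidation (9 genes), the clustered protocadherins PCDHA (15), PCDHB (16) and PCDHG (22), and the imprinted genes SNRPN, SNURF and GNAS held 0 peaks of any kind. Whether these genes are transcribed in A549 was not measured here.

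Among genes of other biotypes, the imprinted locus of SNHG14, the host of many small nucleolar RNAs on chromosome 15, held 9 peaks in several sets. The strongest, with a fold of 10.1 and a width of 3859 bp, lay in SNHG14, PWAR5 and SNORD64 together. Those at SNORD116-4, SNORD116-19, SNORD116-20 and SNORD116-21 had folds of 6.73, 6.24, 4.30 and 5.76. SNORD116 copies are near identical, so their placement is uncertain. MALAT1, an abundant nuclear long noncoding RNA, and its antisense RNA TALAM1 shared 3 peaks with folds of 2.01, 2.32 and 1.97 and widths of 111, 1899 and 2380 bp. All 3 were weak, and the last had the lowest fold of all 23111 peaks. The LRRC37A4P pseudogene and LOC105369225 held 6 peaks with folds from 4.26 through a median of 5.89 to 8.07, and LRRC37A17P with LOC101927060 held 4.

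Copies elsewhere in the genome limit other sets as well. CASTOR2 and RCC1L share 4.41 kb in a duplicated region of chromosome 7, and the 6 peaks there were all weak, with folds from 2.87 through a median of 3.54 to 4.04. SRGAP2 and FAM72A, SRGAP2B and FAM72D, RANBP2 and RGPD5, and the histone genes H4C15 and H3C15 (fold 7.09) also belong to families with near copies, and how reads were divided among copies is not given in the sources used here.

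Shared peaks were unevenly spread over the chromosomes. They made up 6.15% (3.89 to 9.16%) of peaks on chromosome 19, where 17 of 22 came from ZNF565 and ZNF146, and 6.07% (3.44 to 9.82%) on chromosome 21, where 11 of 15 came from SLC5A3 and MRPS6. Chromosome 14 had 4.56% and chromosome 9 only 0.555% (0.180 to 1.29%). On chromosome 13 there was 1 of 472, and on chromosome 18 there were 0 of 354, which allows up to 1.04%.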

How the data were processed

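RIP-seq peaks of 1 HNRNPC IP library were analysed, without values of the input library. Per the submitters' processing notes the tools were bedtools, HISAT2 and MACS2 and the build was hg38, while versions, settings and the control are not given in the sources used here. The deposited list gives each peak a score (the integer part of 10 times −log10 q in all 23148 rows), a fold enrichment (ratio), and the −log10 of p-value and q-value, without strand or read depth. Summits were placed in gene spans of the RefSeq table for GRCh38.p14, 1-based, and 37 peaks on other contigs were left out. Kinds were assigned in the order other biotypes, cluster, readthrough, nested, partial. A readthrough gene was one whose symbol joins 2 gene symbols, and those counted by component were protein-coding. By this rule SLCO1B3-SLCO1B7 was counted as partial, and GCOM1 and MMP24-AS1-EDEM2 as nested. Strand was known for 79.1% of 20037 protein-coding genes. Named genes were the sets with the most peaks or highest folds and fixed families. The members and lists were chosen with earlier results of these data known. The edge rule of 50 bases was added after the data were seen. Intervals are 95% exact binomial or Poisson intervals, and binomial order-statistic intervals for medians. On simulated data 200 of 200 peaks were placed correctly. Python 3.11.15, numpy 2.4.6, pandas 2.3.3 and scipy 1.17.1 were used. No test was made, with 1 library per group.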

Additional observations from a re-analysis of the deposited data

How the results depend on the processing

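Of 77 values recomputed under other settings, 64 stayed within the range set for a change and 13 moved. Counting all biotypes together gave 1550 shared peaks (6.71%) in 668 sets, of which 202 were readthrough, 573 nested and 729 partial, at a density of 10.5 per Mb. Leaving out readthrough genes gave a share of 1.95% and 0 readthrough peaks. Leaving out LOC genes left 25 peaks of other biotypes only. At q of 0.001 or less the median fold was 6.05 and the density 16.2 per Mb, and at a fold of 4 or more the density was 17.5, thresholds that remove peaks by construction. Midpoint or whole-peak placement moved none of these values. No paired analysis was possible because each group has 1 library. Depth is unknown, strand is missing for some genes, and spans do not separate exons from introns.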

Other observations

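Peaks under a protein-coding gene and a gene of another biotype were more numerous than peaks under overlapping protein-coding genes. The length of these mixed overlaps was not measured on its own. Over overlaps of all biotypes together the density was 10.5 peaks per Mb, against 19.4 under 2 or more protein-coding spans. Such peaks, with 1 protein-coding gene and at least 1 other gene at the summit, numbered 980 (4.24%, 3.98 to 4.51%), with a median fold of 5.76 and a median width of 125 bp. ITGA6, an integrin subunit of epithelial cells, shared 17 with PDK1-AS1 (folds 3.90, median 6.95, to 11.6). The phosphodiesterase gene PDE10A shared 17 with LINC00473 (folds 3.75, median 5.57, to 9.35). CTNND1, which encodes p120 catenin of cell junctions, shared 15 with TMX2-CTNND1, and the highest of these had a fold of 17.9. ZFP91, a zinc finger protein, shared 11 with ZFP91-CNTF at a median fold of 8.67. The antisense RNAs PAPPA-AS2, ZFHX3-AS1 and RNF213-AS1 shared 14, 14 and 13 peaks with PAPPA, ZFHX3 and RNF213. Among the 524 peaks shared by protein-coding genes, 21 also lay in a gene of another biotype.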
